A study of Mus musculus with 2 samples.

Results

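Cytokines are secreted signals between immune, glial and neuronal cells, and NF-kB is the transcription factor that switches many of their genes on. The genes described here are 10 members of this system in the mouse hippocampus. They are the chemokine genes Ccl3 and Cxcl10, the inflammatory cytokine genes Tnf, Il1b, Il6 and Il18, the genes Il4 and Tgfb1 of cytokines that restrain inflammation, and Nfkb1 and Nfkbia of NF-kB itself. They were chosen by name, and their probes were found through the RefSeq accession that the array files give for each probe. Of the 10 genes, 9 had a probe, each read by a single probe sequence. No probe was matched to Nfkb1, which encodes the p105 and p50 subunit of NF-kB, and it is not analysed here. Of the 9, 6 were measured, meaning that the scanner software flagged more than 50% of the probe's spots as well above background in each RNA and on each array: Ccl3, Cxcl10, Il1b, Il18, Tgfb1 and Nfkbia. Over the whole array 23603 genes and transcripts met that condition, 13318 of them with a gene symbol.

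The RNA came from the hippocampus of male C57BL/6J mice, 11 weeks old and 26 to 28 g. After 1 week on standard powdered chow, the ASX group was fed for 4 weeks chow holding 0.5% by weight of a powder with 2% astaxanthin, a red carotenoid antioxidant from the alga Haematococcus pluvialis. The control group was fed the same chow with 0% of that powder and with placebo powder; no allele, injury or immune challenge is named for either group. Total RNA of both groups was hybridised together on 2 two-colour arrays, with the ASX RNA in the dye Cy5 and the control RNA in Cy3 on array 1 and the dyes exchanged on array 2. The arrays are titled with 4 mice, but the labels do not say how RNA of the mice was combined, so the arrays count as repeat readings of the same 2 RNA samples. With 1 replicate a diet difference cannot be tested and no p-value is given. Every SD below is a technical spread, either between the 2 arrays or over the spots of a probe.

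In resting brain, cytokine transcripts are scarce and are made largely by microglia, the resident macrophages, with contributions from astrocytes and vessel cells. Receptors for tumour necrosis factor and interleukin-1 signal through adaptor proteins and the kinase TAK1 to the IkB kinase complex. That complex marks the inhibitor IkB-alpha for destruction, and NF-kB dimers then enter the nucleus and induce chemokine and cytokine genes together with the gene of IkB-alpha, which closes the loop. Interleukin-1beta and interleukin-18 need a further step, cleavage by the enzyme caspase-1, before they act. In the hippocampus several of these cytokines are known to influence the production of new neurons, which the title of the study names as its subject.

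Between 75.4% and 77.9% of probes were well above background for an RNA on an array. All 13 hippocampal neuron markers with a probe, Prox1 and Wfs1 among them, were measured in that sense. Ratios are given as log2(ASX / control) after background correction and loess, so that values above 0 mean more signal from the ASX RNA. The median over all genes measured was -0.0043. The size rule asked for a ratio of 1.5-fold or more toward the same diet on array 1 and on array 2. It was passed by 20 of 23603 genes and transcripts, 0.0847%, with 15 higher (0.0636%) and 5 lower (0.0212%). Of the calls 75.0% were higher, against 85.5% with the scanner's own log ratios and 50% with median centring.

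None of the 6 measured cytokine, chemokine and NF-kB genes passed the rule, beside that 0.0847% of all genes. Their median log2 ratio was -0.04, and their mean ratios ran from -0.26 for Ccl3 to 0.25 for Cxcl10. Ccl3 and Il1b were below 0 on each array, which 23.0% of genes shared, and Cxcl10 was above 0 on each, which 22.2% shared. On array 2, however, Il1b lay practically at 0, with -0.00065, and at 0.02 with outlier spots kept. Tgfb1 was brighter in Cy5 on both arrays whichever RNA carried it, like 27.3% of genes. Il18 and Nfkbia were brighter in Cy3 on both, like 27.5%. At a size of 1.2-fold on each array, which 1.75% of all genes passed, 1.43% as higher and 0.314% as lower, 0 of the 6 passed. At 2-fold, 0.0169% of genes passed, 0.0127% as higher and 0.00424% as lower, and again 0 of the 6. RNA of whole tissue does not tell fewer cells of a type from less RNA per cell.

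**Figure D1:**
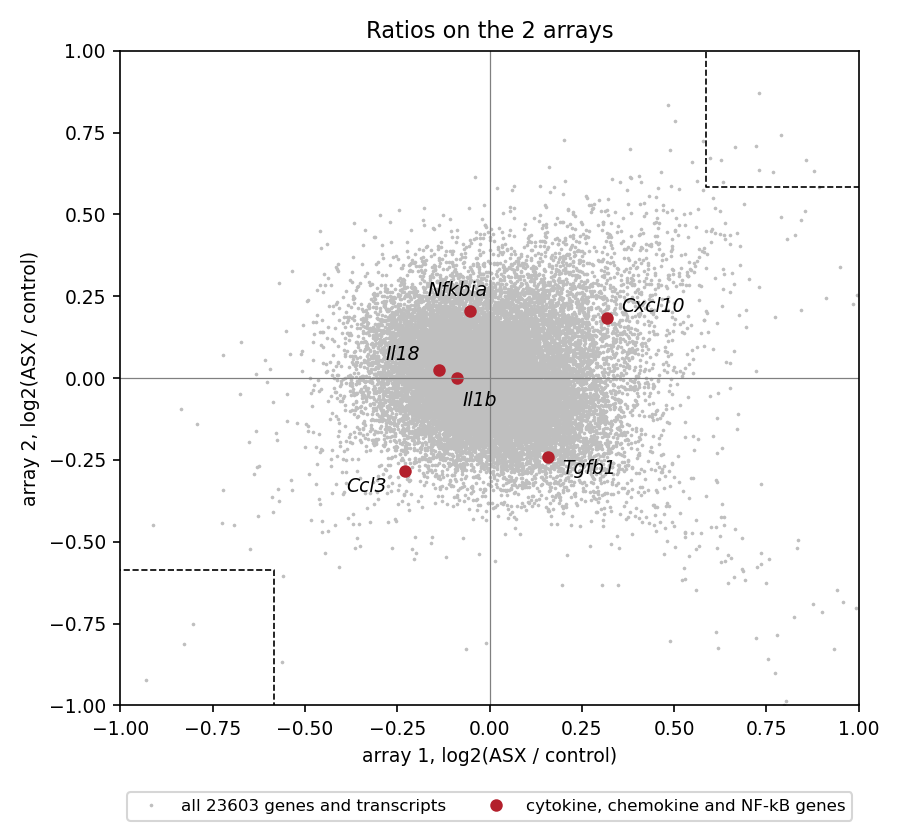
Log2(ASX / control) of each gene on array 1 (x axis) and on array 2 (y axis), for all 23603 genes and transcripts in grey and the 6 measured cytokine, chemokine and NF-kB genes in red. Dashed corners mark 1.5-fold in the same diet direction on both arrays, where no red point lies; 20 genes lie beyond the axis limit of 1 and are not drawn.

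Both chemokine genes lay on 1 side of 0 on both arrays, and on opposite sides from each other. Ccl3 encodes a chemokine that draws monocytes and microglia, and Cxcl10 encodes an interferon-induced chemokine that draws T cells through CXCR3. In the ASX RNA Ccl3 was at 0.837 of its control level in the mean of the arrays, and Cxcl10 at 1.19 of its own. The spot signal of Ccl3 was 134 units in the ASX RNA and 167 in the control RNA on array 1, over local backgrounds of 71.0 and 66.0. On array 2 it was 127 and 160, over 66.5 and 68.5. The ASX RNA gave the lower Ccl3 signal on both arrays, in either dye. That raw order was not particular to Ccl3. The median raw signals of Tnf, Il1b, Il6, Il18, Tgfb1 and Nfkbia were also lower in the ASX RNA on both arrays. Those of Cxcl10 and Il4 were not. After loess, Il18 and Nfkbia still had ratios on both sides of 0. After normalization the log2 ratio of Ccl3 was -0.23 on array 1 and -0.28 on array 2, a mean of -0.26 with an SD of 0.0381. A lower mean ratio was held by 0.771% of all genes, and 3.92% lay farther from 0 in either direction.

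The spot signal of Cxcl10 was 194 in the ASX RNA and 179.5 in the control RNA on array 1, and 171 and 174 on array 2. The local backgrounds were 66.0 on array 1 for both RNAs, and 64.0 and 71.0 on array 2. The ASX RNA gave the higher raw signal on array 1, and on array 2 the raw signals were nearly equal. After normalization the log2 ratio of Cxcl10 was 0.32 on array 1 and 0.18 on array 2, a mean of 0.25 with an SD of 0.0943. Of all genes, 96.6% had a lower mean ratio and 4.25% lay farther from 0.

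The size of both chemokine ratios depended on how background was handled, because an offset of 50 draws the ratios of dim spots toward 0. Ccl3 had means of -0.35 with an offset of 16, -0.42 with the local background subtracted and -0.47 with the scanner's log ratio, and a smaller one of -0.17 with median centring. In the first 3 of these it was at least 1.2-fold lower on each array, a size shared by 0.555%, 0.911% and 1.22% of all genes. Cxcl10 had 0.32, 0.36 and 0.36 in the same order, and was at least 1.2-fold higher on each array with the scanner's log ratio alone, like 3.36% of genes. With the smaller offset and with background subtracted, 2.21% and 2.74% of genes were that much higher, and Cxcl10 was not among them. Median centring put 1.67% of genes past that size as higher and 2.64% as lower, and 0 of the 6. The sign of both genes was the same in all 10 settings that used both arrays. Of these, the brightness filters and the probe rule could not change it, since each gene has a single probe, which was measured. Keeping outlier spots left the means at -0.26 and 0.25, and the deposited value table repeated the scanner's log ratio. Neither gene reached 1.5-fold on each array with the smaller offset, with background subtracted, with median centring or with the scanner's log ratio. Each was read by 1 spot per array, so no spread between spots is known.

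The bases before the start of these 2 genes are shown because the pair lay on opposite sides of 0, with those of Il6 and Nfkbia as the other members whose windows held an NF-kB match. The windows of Tnf, Il1b, Il18, Il4 and Tgfb1 held no NF-kB match and are not printed. Each window is the 250 bases before a RefSeq start in build GRCm38.p6, 5′ to 3′ on the gene's strand. Capitals mark matches to the NF-kB consensus motif or to the interferon response core (GAAA, any 2 bases, GAAA), searched on both strands.
Cxcl10, chr5:92348890-92349139, minus strand: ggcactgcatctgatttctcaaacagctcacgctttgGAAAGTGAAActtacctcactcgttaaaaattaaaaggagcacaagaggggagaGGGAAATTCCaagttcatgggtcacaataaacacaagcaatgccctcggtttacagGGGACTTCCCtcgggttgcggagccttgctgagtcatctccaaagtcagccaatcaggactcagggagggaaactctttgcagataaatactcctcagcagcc
Ccl3, chr11:83649379-83649628, minus strand: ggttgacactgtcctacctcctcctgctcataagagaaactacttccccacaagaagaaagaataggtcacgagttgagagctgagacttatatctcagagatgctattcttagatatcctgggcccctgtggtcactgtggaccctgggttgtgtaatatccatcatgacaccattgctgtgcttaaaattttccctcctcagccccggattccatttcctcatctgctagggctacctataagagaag
Il6, chr5:30012864-30013113, plus strand: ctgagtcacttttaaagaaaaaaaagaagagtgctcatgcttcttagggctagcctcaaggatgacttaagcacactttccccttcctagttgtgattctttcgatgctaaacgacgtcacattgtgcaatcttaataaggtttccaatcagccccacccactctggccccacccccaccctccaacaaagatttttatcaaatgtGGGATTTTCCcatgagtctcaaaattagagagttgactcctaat
Nfkbia, chr12:55492648-55492897, minus strand: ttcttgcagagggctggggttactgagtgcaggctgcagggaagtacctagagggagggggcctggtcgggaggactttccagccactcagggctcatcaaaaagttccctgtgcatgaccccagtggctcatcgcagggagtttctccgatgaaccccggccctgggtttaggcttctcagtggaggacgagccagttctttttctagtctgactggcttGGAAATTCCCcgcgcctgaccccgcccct

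The window of Cxcl10 held 2 NF-kB matches, at 159 to 150 and 103 to 94 bases before the start, and 1 interferon response core at 213 to 204. That of Ccl3 held neither motif in these letters. Il6 had 1 NF-kB match at 44 to 35 bases before the start, and Nfkbia 1 on the opposite strand at 29 to 20. The 2 motifs did not overlap in any of the 4 printed windows. Among the windows not printed, that of a second Il4 start held 1 interferon response core, on the opposite strand at 190 to 181. Over all 32851 promoter windows of that length, 3.90% held the NF-kB consensus and 2.98% the interferon core. A match describes the letters and does not show binding, and a link between matches and the sign of a ratio was not tested.

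Among the other chemokines, 14 of 21 with a probe were measured, and 0 passed the 1.5-fold rule. Of the 14, 8 were below 0 on both arrays and 2 above, with a median of -0.05. Over all genes measured, 23.0% were below 0 on both arrays, 22.2% above and 27.5% brighter in Cy3 on both. These shares stand beside the counts of each list below, and no difference from them was tested. Ccl19, which guides dendritic cells and T cells, had 0.65 on array 1 and 0.05 on array 2, a mean of 0.35; a further Ccl19 probe had 0.517 and 0.188. Cxcl5, a neutrophil chemokine, had -0.43 and -0.25, a mean of -0.34, which was -0.59 with background subtracted and -0.97 with the scanner's log ratio. It was read by 1 dim spot per array, with a mean log2 brightness of 6.88 beside a median of 9.24 over all genes. Ccl4, named here as a close relative of Ccl3, had 0.22 and -0.12, so it did not keep 1 side. Ccl2, Ccl5 and Ccl12, monocyte and T cell chemokines named for that role, had means of -0.12, -0.08 and -0.11, each below 0 on both arrays. Cxcl1, Cxcl2 and Cxcl9 were not measured.

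Cxcr3, the receptor gene for Cxcl10, had 0.0029 and -0.06. Cxcl10 is itself an interferon-induced gene, and all 17 listed interferon-induced genes with a probe were measured. None of the 17 passed, 2 were above 0 on both arrays, 2 below, and 9 were brighter in Cy3 on both; their median was -0.01. Ifit3, an antiviral RNA-binding protein gene, had 0.27 and 0.12, with a mean of 0.05 under median centring, and Gbp3, a guanylate-binding protein gene, 0.07 and 0.13 but a mean of -0.01 with median centring. The interferon genes Ifng and Ifnb1 were not well above background for either RNA on either array.

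Cell type markers were set beside the chemokines. All 14 microglial markers with a probe were measured; 4 were below 0 on both arrays, 2 above, and 0 passed. Their summed level was 46528 and 44344 units in the ASX RNA on arrays 1 and 2, and 46161 and 45694 in the control RNA, which is no constant order. Tmem119 had -0.16 and -0.17, and P2ry12, a receptor of resting microglia, -0.10 and -0.15; with median centring their means were -0.35 and -0.30. Of the blood leukocyte markers, 8 of 13 with a probe were measured, with a median of -0.02, 2 above 0 on both arrays and 1 below. Their summed levels, S100a8 and S100a9 included, were 1486 and 1544 in the ASX RNA and 1195 and 1312 in the control RNA. In that list S100a9 (mean 1.27) and S100a8 (0.65), abundant in neutrophils, passed as higher. The mean of S100a8 was 0.94 with an offset of 16, 1.2 with background subtracted and 1.61 with the scanner's log ratio. The other 6 measured leukocyte markers did not pass; Ptprc, the pan-leukocyte gene of CD45, had -0.29 and 0.03. Cd3g, Ms4a1, Ngp and Camp were well above background on both arrays in neither RNA, and the neutrophil gene Ltf in the ASX RNA alone. Meningeal fibroblast genes had a median of 0.21, with 7 of 9 above 0 on both arrays, 0 past the rule, and sums of 31283 and 31941 in the ASX RNA and 31338 and 28552 in the control RNA. None of the 8 astrocyte, 10 endothelial and pericyte and 13 hippocampal neuron markers passed, with medians of -0.04, -0.04 and 0.05. Median centring gave these lists -0.23, -0.12 and -0.18, the microglial markers -0.22 in place of -0.03, and the meningeal genes 0.07. Slc1a2, the astrocyte glutamate transporter gene, had 0.26 and 0.19, but 0.01 in the mean with median centring, and a further probe had 0.283 and -0.041. Pdgfrb, a pericyte receptor gene, had 0.39 and 0.08, and Slco1a4, an endothelial transporter gene, 0.11 and 0.10 but a mean of -0.06 with median centring. The meningeal genes Bgn, of the matrix protein biglycan, and Aldh1a2, of a retinoic acid synthesis enzyme, had means of 0.28 and 0.25. The neuronal list's Zbtb20, a transcription factor gene, and Tdo2, of a tryptophan-degrading enzyme, had 0.28 and 0.13. The part of these cells in the chemokine ratios was not tested.

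Of the inflammatory cytokine genes, Il18 and Il1b were read well above background, and Tnf and Il6 were not well above it. Il1b encodes interleukin-1beta, a fever and microglial activation signal, and Il18 encodes interleukin-18, which drives interferon production. With an offset of 50 and loess, neither gene reached the 1.2-fold size on either array in the mean of its spots; on array 1 alone Il1b passed it with the scanner's log ratio and Il18 with median centring. Each was printed on the array as 10 spots, which shows the spread within an array.

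**Figure D2:**
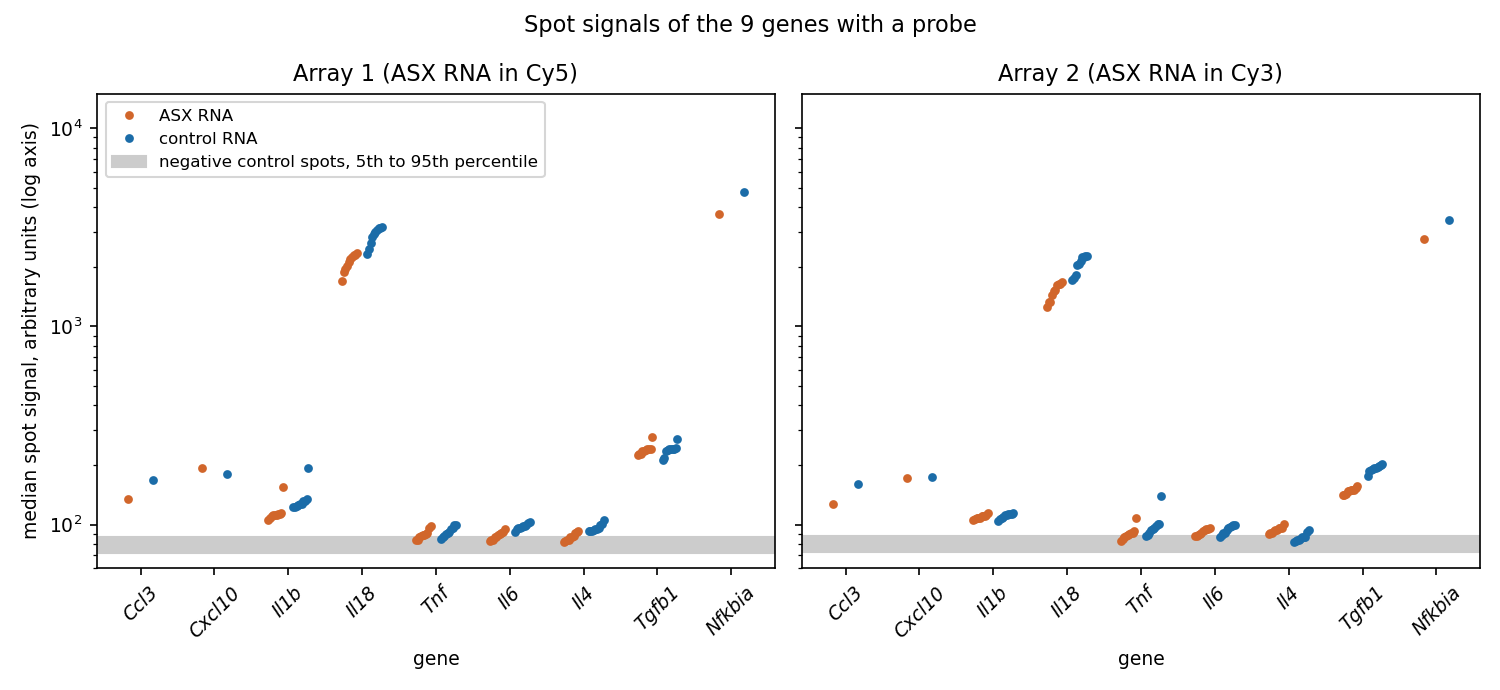
Median spot signal (y axis, log scale, arbitrary units) of every spot for the 9 genes with a probe, with the ASX RNA in orange and the control RNA in blue, on array 1 (left) and array 2 (right). The grey band is the 5th to 95th percentile of 153 negative control spots; Tnf, Il6 and Il4 lie in or just above it apart from 1 Tnf spot at 140, and Il18 and Nfkbia far above it.

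The 10 Il1b spots gave signals of 105 to 154 in the ASX RNA, with a median of 112, and 122 to 193.5 in the control RNA, with a median of 127.25, on array 1. On array 2 they gave 105 to 114, with a median of 109, in the ASX RNA and 104 to 115, with a median of 112, in the control RNA. On array 1 the highest signal of each RNA, 154 and 193.5, came from 1 spot called an outlier; the other 9 spots ran from 105 to 114 in the ASX RNA and from 122 to 134 in the control RNA and did not overlap. On array 2 the ranges nearly coincided. After spots called outliers were left out, 9 spots on array 1 had a mean log2 ratio of -0.09 (SD over spots 0.069), all below 0. On array 2, 6 spots had a mean of -0.00065 (SD 0.063), with 2 above 0 and 4 below. The mean of the arrays was -0.04 with an SD of 0.0623, a level of 0.969 of the control. With the outlier spots kept, array 2 read 0.02. The scanner's log ratio gave Il1b -0.33 and -0.02, a mean of -0.17, and median centring gave 0.03 and 0.16, a mean of 0.09, above 0.

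Il18 was far above background, with 10 spots from 1703 to 2346.5 units in the ASX RNA (median 2159) and 2333 to 3173 in the control RNA (median 2971.25) on array 1. On array 2 the spots ran from 1260 to 1681.5 (median 1521.5) in the ASX RNA and from 1724 to 2265.5 (median 2107) in the control RNA. The raw signal was thus lower in the ASX RNA on both arrays, with a small overlap of spots on array 1 and none on array 2, before loess removed the trend shared by probes of like brightness. After it, all 10 spots were below 0 on array 1, with a mean of -0.14 (SD over spots 0.029). On array 2, 8 of 10 were above 0, with a mean of 0.02 (SD 0.047). The mean of the arrays was -0.06 with an SD of 0.113. Median centring, which removes no such trend, gave -0.31 and -0.17, a mean of -0.24, while the median of all genes was then -0.10.

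Tnf encodes tumour necrosis factor, and Il6 encodes interleukin-6, both early products of activated microglia. On array 1 the 10 Tnf spots ran from 84.0 to 98.5 in the ASX RNA and 85.0 to 99.5 in the control RNA, with medians of 89.0 and 91.5. On array 2 they ran from 82.5 to 108 and from 88.0 to 140, with medians of 89.25 and 95. The spots of the 2 RNAs overlapped on both arrays. Of 10 spots, 2 and 1 were well above background in the ASX RNA on arrays 1 and 2, against 0 and 2 in the control RNA. The median of 153 negative control spots lay between 76.0 and 80.0 units over the RNAs and arrays.

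Il6 was not well above background either. Its medians were 87.5 units in the ASX RNA and 97.5 in the control RNA on array 1, and 91.75 and 94.75 on array 2. The ranges were 82.5 to 95 against 92.0 to 103 on array 1 and 88.0 to 96.0 against 87.0 to 100 on array 2, overlapping on both. Of 10 spots, 1 and 0 were well above background in the ASX RNA and 3 and 2 in the control RNA. Once the local background was subtracted, 6 to 10 of 10 Tnf spots and 7 to 10 of 10 Il6 spots exceeded the 95th percentile of the negative controls in an RNA on an array. No ratio is given for Tnf or Il6, since neither RNA was well above background.

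The receptors and processing enzymes of these cytokines were read more readily than the cytokines. Of 18 receptor genes with a probe 15 were measured and 0 passed; 3 were above 0 on both arrays and 4 below, with a median of -0.04. Il1rap, the accessory chain of the interleukin-1 receptor, had 0.15 and 0.30, and Il4ra, the interleukin-4 receptor chain, -0.17 and -0.25. The tumour necrosis factor receptor genes Tnfrsf1a and Tnfrsf1b, named for their role, had means of -0.04 and 0.04, and a second Tnfrsf1b probe had -0.018 and -0.146. Il6st, the shared signal chain gp130 of interleukin-6, had -0.05 and -0.09. Il18r1 was not well above background. All 12 processing and release genes with a probe were measured, 0 passed, and 5 were below 0 on both arrays against 1 above. Casp1, the gene of the caspase that cleaves both interleukins, had -0.17 on array 1 and -0.18 on array 2. Nlrp3, the inflammasome sensor gene, had 0.15 and 0.05.

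Of the other cytokine ligands, 14 of 26 with a probe were measured and 0 passed, with 5 below 0 on both arrays, 2 above and a median of -0.07. Il15, a growth signal for natural killer cells, had -0.24 and -0.06, and Tgfb2, a relative of Tgfb1, had 0.10 and 0.09 but a mean of -0.11 with median centring. The 12 that were not measured include Il1a, Il1rn, Il10, Il17a, Csf2 and Csf3.

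**Figure D3:**
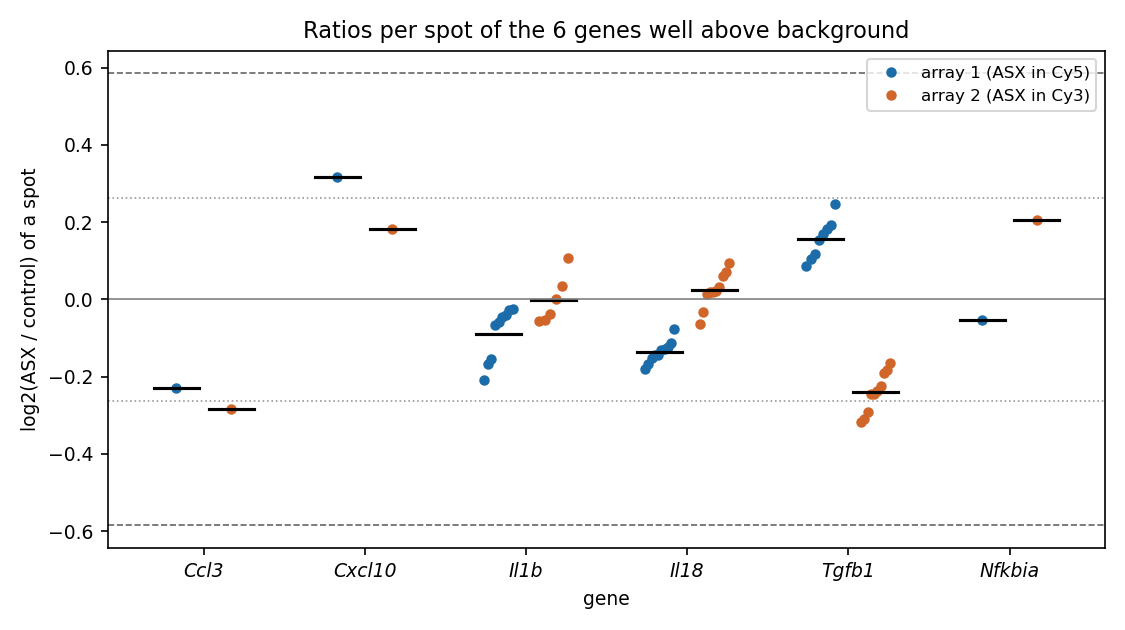
Log2(ASX / control) of single spots (y axis) for the 6 measured genes, array 1 in blue and array 2 in orange, with black bars at the mean; outlier spots are left out. Dotted lines mark 1.2-fold and dashed lines 1.5-fold. The Tgfb1 spots lie above 0 on array 1 and below 0 on array 2, while Ccl3 and Cxcl10 keep their side.

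Of the restraining cytokine genes, Tgfb1 gave no diet difference of constant sign, and Il4 was not measured. Tgfb1 encodes transforming growth factor beta, which keeps microglia in a resting state, and Il4 encodes interleukin-4, which turns macrophages toward repair. The 10 Tgfb1 spots read 223.5 to 275.5 units in the ASX RNA (median 236.25) and 212.5 to 270.5 in the control RNA (median 240.0) on array 1, with broad overlap. On array 2 they read 141 to 156.5 (median 148.5) in the ASX RNA and 175 to 202 (median 192.25) in the control RNA, with none. All 8 spots used on array 1 were above 0, with a mean log2 ratio of 0.16, and all 10 on array 2 were below 0, with a mean of -0.24 (SD over spots 0.053 on each). The mean of the arrays was -0.04 with an SD of 0.281, and -0.10 with the scanner's log ratio. Tgfb1 was therefore brighter in Cy5 on both arrays, by 0.20 on the log2 scale, and the spread between spots was far smaller than the gap between arrays.

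Il4 was not well above background. Its 10 spots had medians of 86.0 units in the ASX RNA and 95 in the control RNA on array 1, and 93.75 and 85.75 on array 2. They ran from 82.0 to 93.0 against 92.5 to 106 on array 1, and from 90.0 to 101 against 81.5 to 94.0 on array 2. The RNA in Cy3 gave the higher median on each array, the ranges overlapped, and 1 spot per RNA on array 1 and 0 on array 2 were well above background. Net of local background, 10 of 10 spots in Cy3 on each array exceeded the 95th percentile of the negative controls, and 4 and 3 of 10 in Cy5.

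Genes that respond to interleukin-6, interleukin-4 and TGF-beta were measured in 13 of 16 cases. By the brightest probe of each gene, 0 passed, 0 were above 0 on both arrays and 3 below, with a median of -0.04. Second probes were above 0 on both arrays for Skil (0.25 and 0.28) and Jak2 (0.029 and 0.044). Those of Stat6 (-0.136 and -0.052) and Jak1 (-0.033 and -0.019) were below 0 on both. Socs3, the feedback inhibitor induced by interleukin-6, had -0.23 and -0.03, and Stat3, its transcription factor, had -0.13 and -0.09, with a mean of -0.31 under median centring. The TGF-beta receptor genes Tgfbr1 and Tgfbr2, named for their role, had means of -0.04 each, with the arrays on opposite sides of 0; a second Tgfbr1 probe had 0.018 and 0.123. Smad3, which carries the TGF-beta signal, had 0.04 and -0.07, and a second Smad3 probe had -0.098 and -0.131.

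Nfkbia, the gene of IkB-alpha and a standard reporter of NF-kB activity, was read at 3692.5 units in the ASX RNA and 4767 in the control RNA on array 1. On array 2 it read 2767 and 3454. The raw signal was lower in the ASX RNA on both arrays, before loess. The log2 ratio after loess was -0.05 on array 1 and 0.21 on array 2, a mean of 0.08 with an SD of 0.184, on opposite sides of 0. With median centring it was -0.23 and -0.02, a mean of -0.12, so its sign depends on the scaling. With 1 spot per array the spread between spots is not known.

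**Figure D4:**
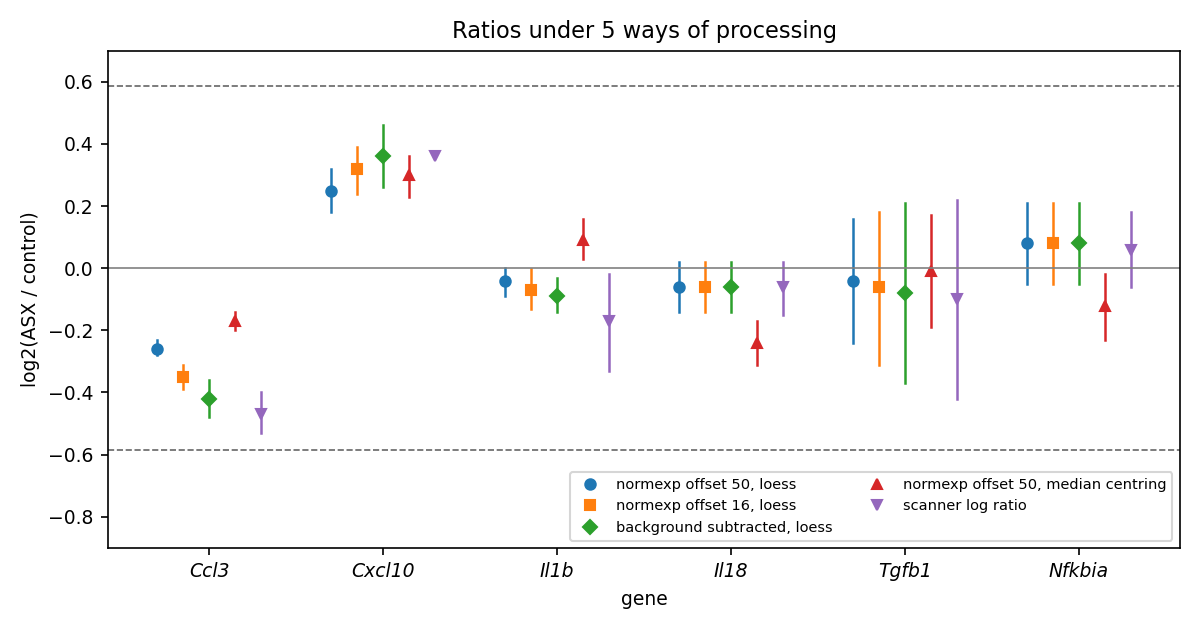
Log2(ASX / control) of the 6 measured genes (y axis) under 5 ways of processing; symbols are the mean of the arrays and lines join the values of array 1 and array 2. Dashed lines mark 1.5-fold. Ccl3 and Cxcl10 keep their sign in all 5, while Il1b and Nfkbia change sign with median centring.

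Of the other NF-kB subunits and inhibitors, 8 of 9 were measured and 0 passed, with 1 above 0 on both arrays, 2 below and a median of -0.07. Rela, the gene of the main activating subunit, named for its role, had -0.15 and 0.08, with a second probe at -0.105 and 0.001, and Rel was not well above background. Nfkbie and Nfkbid, both genes of IkB proteins, had means of -0.10 and -0.07. In the relay from receptors to NF-kB, 19 of 20 genes were measured and 0 passed, with 7 below 0 on both arrays, 2 above and a median of -0.04. Map3k7, the gene of the kinase TAK1, had 0.36 and 0.14, and Traf6, the gene of an adaptor ligase, had -0.04 and -0.30. Myd88, the adaptor gene of interleukin-1 and Toll-like receptors, named for its role, had -0.15 and -0.16.

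Of the NF-kB target genes 14 of 18 were measured and 0 passed, with 6 below 0 on both arrays, 1 above and a median of -0.07. Traf1, an NF-kB-induced adaptor gene, had -0.22 and -0.10, and Junb, an AP-1 gene, had -0.14 and -0.18; a second Junb probe had 0.144 and -0.353, and median centring gave the first a mean of -0.38. Tnfaip3, the feedback inhibitor A20, named for its role, had -0.10 and -0.02, and Sod2 had -0.06 and -0.04. Sele, Nos2 and Lcn2 were not well above background for either RNA on either array. With median centring, where all genes had a median of -0.10, the medians of the NF-kB targets and of the relay were -0.20 and -0.15.

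**Figure D5:**
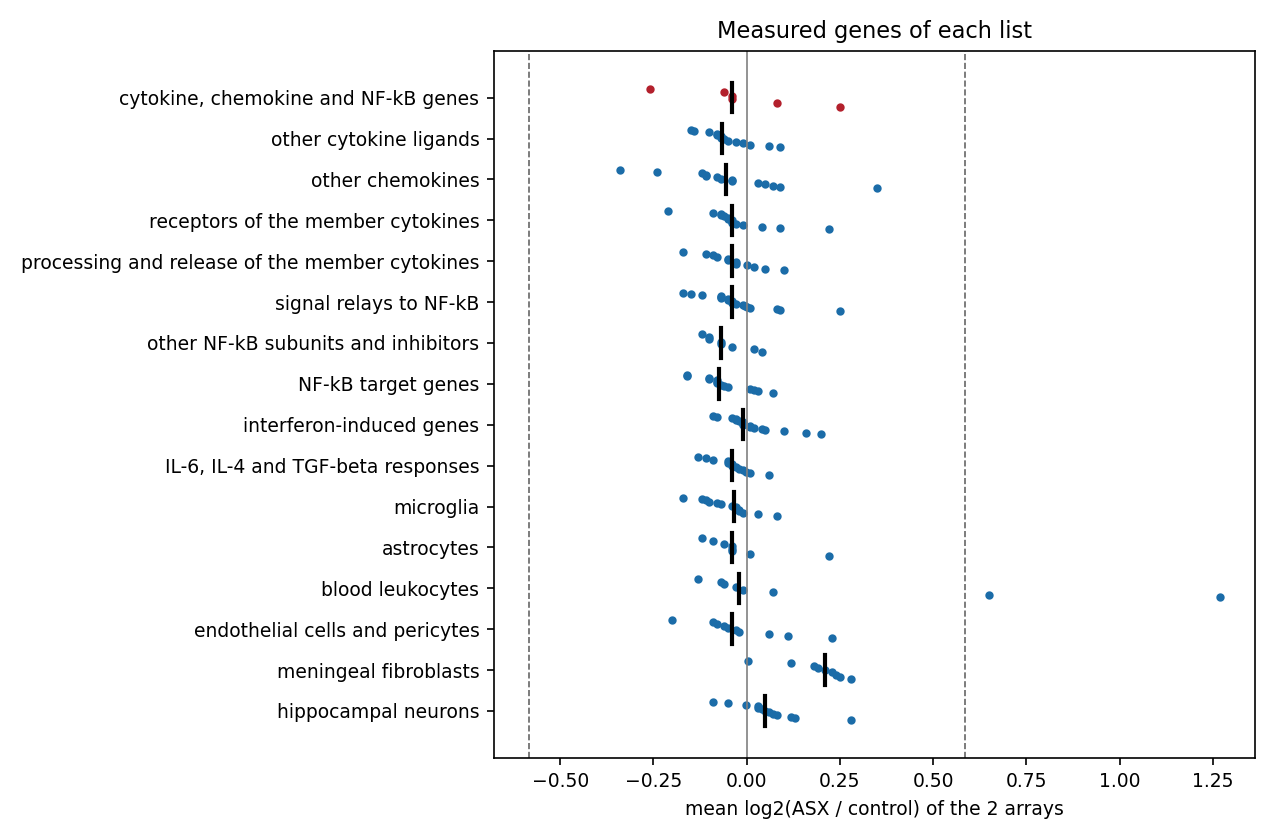
Mean log2(ASX / control) of the 2 arrays (x axis) for each measured gene (points) of the cytokine, chemokine and NF-kB genes (red) and of 15 lists of pathway genes and cell type markers (blue), with black bars at the medians. Dashed lines mark 1.5-fold; the 2 points beyond it are S100a8 and S100a9.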

How the data were processed

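The scanner software was Agilent Feature Extraction 11.0.1.1, per the submitters' processing notes. Per the file headers, the deposited intensity was the median over a spot's pixels, with a median local background and no normalization. The deposited log10 ratio was processed Cy5 over Cy3, background-subtracted and dye-normalized by that software, and the deposited value table held the same ratios, not turned for the dye swap. The deposited p-value per spot covers technical error and was not used.

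Here limma 3.58.1 (R 4.3.3) applied normexp background correction with an offset of 50 and then loess within each array, giving control and outlier spots a weight of 0. Non-uniform and population outlier spots were left out, each ratio was set as ASX over control on the log2 scale, and a probe's spots were averaged; 0 spots were saturated. Accessions were named through a RefSeq table of GRCm38.p6 (23374 of 41174 probes matched 1 symbol); array coordinates belong to another build and are not given. A gene took the brightest of its probes that were measured in each RNA and array. Summed list levels are linear, after loess and Aquantile scaling. The number of arrays limits the precision.

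The genes, lists and rules were chosen with earlier results of these data known. All 10 genes were named, and from each list up to 4 genes that passed or otherwise 2 with the largest mean ratio of constant sign; others are named for their role, after their values were seen. Alternatives were other background offsets and scalings, brightness filters, probe rules, fold sizes and single arrays.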

Additional observations from a re-analysis of the deposited data

How the results depend on the processing

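The count of 0 of the measured cytokine, chemokine and NF-kB genes past the 1.5-fold rule held in all other settings run, single arrays included. With an offset of 50 and loess, the sizes of 1.2-fold and 2-fold also gave 0. At 1.2-fold, Ccl3 passed as lower with an offset of 16, with background subtracted and with the scanner's log ratio. Cxcl10 passed that size as higher with the scanner's log ratio. The median log2 ratio of the measured members stayed below 0 in the 10 settings with both arrays, from -0.08 to -0.04. It was 0.012 and -0.071 on the single arrays. Not all of the 10 could move it: the probe rule and the filter on at least 1 RNA left the same genes and values. The deposited value table repeated the scanner's log ratio. Keeping population outlier spots was chosen after seeing the data. Of all genes and transcripts, 15 were higher and 5 lower. The counts were 28 and 8 with an offset of 16, 37 and 11 with background subtracted, and 71 and 12 with the scanner's log ratio and with the deposited value table. With median centring 12 were lower. On single arrays 36 to 137 were higher and 28 to 47 lower. The 1.2-fold size gave 338 and 74, and the 2-fold size 3 and 1. The higher share of calls was 75.0%, against 85.5% with the scanner's log ratio and 50% with median centring. The cause of these shifts was not tested. Tnf, Il6 and Il4 were limited by signal over background, and the arrays were treated as readings of 1 pair of RNA samples.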

Other observations

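The repeated spots of Il1b, Il18 and Tgfb1 show the spread within an array. The spread between arrays also holds any dye effect of a gene, since the dyes were exchanged, and the 2 cannot be told apart. Spots of 1 array had SDs from 0.029 to 0.069 on the log2 scale. The SD between arrays was 0.0623 for Il1b, 0.113 for Il18 and 0.281 for Tgfb1. Over the 200 measured probes with 10 spots each, the mean ratio of the 2 arrays had a median SD over spots of 0.0326. Ccl3, Cxcl10 and Nfkbia have 1 spot per array and no such measure.

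Some genes of the pathway were well above background for 1 RNA alone on both arrays. Icam1, the gene of a leukocyte adhesion protein, was so in the control RNA, while the ASX RNA reached it on array 1 only. Arg1 and Irak4 were so in the ASX RNA, while the control RNA reached it on array 1 only. No ratio is given for them.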
